A study of Mus musculus with 16 samples.

Results

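The 6 genes described here are *Foxk1* and *Foxk2*, which encode the FoxK forkhead transcription factors, and *Foxo1*, *Foxo3*, *Foxo4* and *Foxo6*, which encode the FoxO forkhead transcription factors. They were chosen by name from the 24421 genes counted in gastrocnemius (Gas) and soleus (Sol) muscle, and all 6 were present in the counts of both muscles. The samples came from male C57BL/6 mice that were treated at 8 weeks of age. LSD1-mKO mice carried floxed *Lsd1* alleles and an ACTA1-CreERT2 transgene, a Cre recombinase driven by the human skeletal actin promoter, so *Lsd1* was deleted in muscle fibers and not in the other cells of the tissue. WT mice carried the floxed alleles without CreERT2. Every mouse, WT included, was given tamoxifen on 5 days at 75 mg/kg and the glucocorticoid dexamethasone (Dex) at 1 mg/kg on 7 days, so no muscle without Dex enters any comparison. There were 3 WT and 5 LSD1-mKO libraries of each muscle, 16 in all, and nothing in the labels says which Gas and Sol libraries came from the same mouse.

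FoxO proteins bind a short forkhead motif and activate genes of the ubiquitin-proteasome and autophagy pathways, and they are known as drivers of muscle atrophy in fasting, disuse and glucocorticoid excess. Insulin and IGF1 act through Akt, which phosphorylates FoxO proteins so that 14-3-3 proteins hold them outside the nucleus. FoxK proteins bind a similar motif and, with the Sin3 corepressor, repress autophagy genes when nutrients are plentiful. Unlike FoxO proteins they enter the nucleus when Akt and mTORC1 are active. RNA levels say nothing of these movements, of phosphorylation or of protein amount.

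The libraries held from 10130415 to 24576377 reads assigned to genes. A gene without a read could still have as many as 3 reads, a level of 0.103 to 0.340 CPM depending on the library (the reads of a gene per 1000000 reads of the library after TMM scaling), and this limit covers counting error only. *Kdm1a*, the gene of LSD1, averaged 41.8 ± 5.70 CPM in WT Gas (SD, n = 3), against 14.2 ± 2.19 CPM in Gas of LSD1-mKO (SD, n = 5). In Sol it averaged 34.2 ± 0.752 CPM in WT (SD, n = 3), against 10.9 ± 1.72 CPM after deletion (SD, n = 5). In each muscle every LSD1-mKO library lay below every WT library (adjusted p of 0.0177 for Gas, 0.000574 for Sol). The Gas call was lost in 6 of 8 fits with 1 library left out and with the replicate number as a block (adjusted p 0.226), while the log2 fold change stayed between -1.65 and -1.44 under every alternative run. The mean level of ribosomal protein genes was 8.69 log2 CPM in replicate 3 of WT Gas, 7.95 in replicate 5 of LSD1-mKO Gas and 7.31 in replicate 2 of WT Sol, whereas the other libraries lay between 7.12 and 7.49 in Gas and between 6.45 and 6.86 in Sol. These 3 libraries stand apart, and the results that rest on them are given with and without them. The library codes in the labels differ between the muscles, so a difference of muscle and a difference of library set cannot be told apart.

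Levels of different genes were compared per exon length, as RPKM (CPM divided by the exon length in kilobases). *Foxo4* had the highest level in all 4 groups, with 49.3 ± 17.8 RPKM in WT Gas (SD, n = 3), 52.9 ± 5.18 in LSD1-mKO Gas (SD, n = 5), 50.5 ± 10.4 in WT Sol (SD, n = 3) and 33.5 ± 7.01 in LSD1-mKO Sol (SD, n = 5). *Foxo1* came next in Gas, with 25.9 ± 13.4 RPKM in WT (SD, n = 3) and 20.6 ± 5.53 in LSD1-mKO (SD, n = 5). In Sol its level was 10.6 ± 6.56 RPKM in WT (SD, n = 3) and 6.07 ± 0.807 in LSD1-mKO (SD, n = 5), where *Foxk2* with 9.65 ± 1.02 RPKM was above it in all 5 libraries. Both FoxK genes were of similar level in Gas, where *Foxk1* had 7.11 ± 3.72 and *Foxk2* had 8.46 ± 3.21 RPKM in WT (SD, n = 3), and their ranges overlapped. In WT Sol the 2 ranges did not overlap, with 4.78 ± 1.24 RPKM for *Foxk1* and 8.35 ± 1.55 for *Foxk2* (SD, n = 3). *Foxo3* and *Foxo6* were the lowest members in every group, with group means from 2.51 to 5.11 RPKM for *Foxo3* and from 0.893 to 2.26 RPKM for *Foxo6*.

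**Figure D1:**
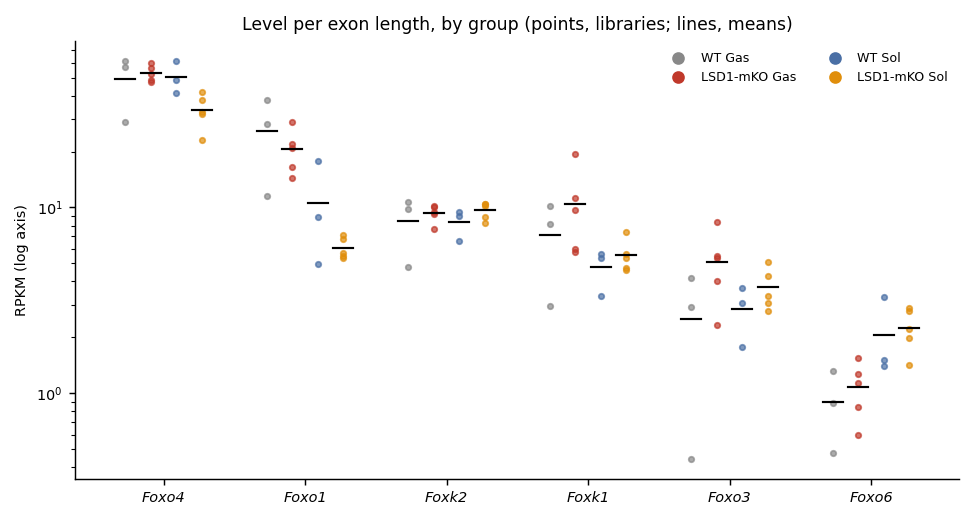
Level per exon length in RPKM (log axis) of the 6 genes in the 4 groups, where points are libraries and lines are group means. *Foxo4* lay highest in each group, *Foxo1* was second in Gas, and *Foxo6* lay lowest.

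Not every neighbour in this order differed beyond its spread. In WT Gas the ranges of *Foxo4* and *Foxo1* overlapped, since WT Gas replicate 3 had 28.8 RPKM of *Foxo4* and WT Gas replicate 1 had 38.0 RPKM of *Foxo1*, although *Foxo4* was the higher gene within each of the 3 libraries. In LSD1-mKO Gas, *Foxk1* was above *Foxk2* in 3 of 5 libraries. In WT Sol, *Foxo1* was above *Foxk2* in 1 of 3 libraries, the one with the high ribosomal protein level. In LSD1-mKO Sol, *Foxo1* was above *Foxk1* in 4 of 5 libraries with overlapping ranges. *Foxo3* and *Foxo6* overlapped in WT Gas, WT Sol and LSD1-mKO Sol and not in LSD1-mKO Gas. Exon lengths came from the GENCODE annotation of GRCm38. With its fuller transcript set *Foxo4* fell from 49.3 to 44.7 RPKM in WT Gas and exceeded *Foxo1* in 2 of 3 libraries there, and the order of the group means was the same in all 4 groups.

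Comparing LSD1-mKO with WT asks whether the RNA of these factors depends on LSD1 under Dex. None of the 6 genes passed an adjusted p under 0.05 in either muscle (edgeR quasi-likelihood F-test, two-sided, Benjamini-Hochberg adjustment over all genes tested). In Gas the test called 4 of 13040 genes, or 0.0307%, and 1182, or 9.06%, at an unadjusted p under 0.05, and none of the 6 genes was among these. In Sol it called 129 of 13342 genes, or 0.967%, and 2069, or 15.5%, at an unadjusted p under 0.05, among them *Foxo1* and *Foxo4*. The genotypes did not overlap in 6.95% of genes for Gas and 10.8% for Sol. None of the 6 genes was among them, apart from *Foxo4* in Sol on another scaling that is given with its values. DESeq2 and the edgeR exact test also called none of the 6.

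**Figure D2:**
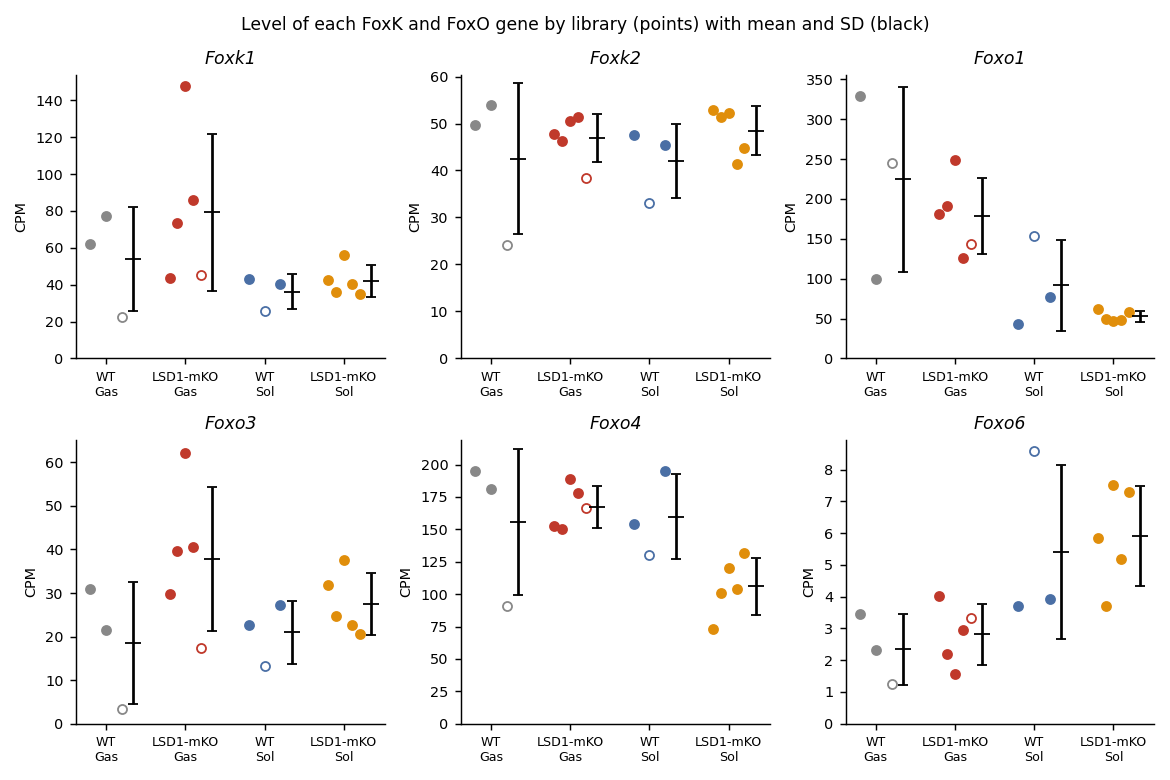
CPM of the 6 genes in each of the 16 libraries, with the mean and SD of each group in black. Open points are WT Gas replicate 3, LSD1-mKO Gas replicate 5 and WT Sol replicate 2, the libraries with a high ribosomal protein level. *Foxo1* in LSD1-mKO Sol lies in a narrow band from 46.3 to 61.9 CPM, and WT Gas replicate 3 is the lowest Gas library for every gene except *Foxo1*.

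*Foxk1* (chromosome 5, 142401497 to 142462011, plus strand, GRCm38) had 62.1, 77.1 and 22.5 CPM in WT Gas replicates 1 to 3. LSD1-mKO Gas replicates 1 to 5 had 43.5, 73.4, 148, 85.8 and 45.3 CPM. The groups overlapped widely, with WT replicate 3 lowest and LSD1-mKO replicate 3 highest, a 6.58-fold range over the 8 Gas libraries. In Sol the values were 42.9, 25.5 and 40.4 CPM in WT and 42.8, 35.9, 56.1, 40.4 and 35.0 CPM in LSD1-mKO, so only WT Sol replicate 2 lay outside the LSD1-mKO range on the low side. LSD1-mKO over WT gave a log2 fold change of 0.55 in Gas (95% interval -0.49 to 1.59, adjusted p 0.672) and 0.20 in Sol (95% interval -0.24 to 0.65, adjusted p 0.682). These intervals include no change and, in Gas, also more than a doubling of the RNA.

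*Foxk2* (chromosome 11, 121259990 to 121309896, plus strand), the second FoxK gene, was the steadiest of the 6, with a coefficient of variation of 17.6% over the 16 libraries. WT Gas had 49.6, 54.0 and 24.0 CPM and LSD1-mKO Gas had 47.7, 46.2, 50.6, 51.4 and 38.4 CPM. WT Sol had 47.5, 33.1 and 45.4 CPM and LSD1-mKO Sol had 52.8, 51.4, 52.2, 41.3 and 44.9 CPM. The low values were those of WT Gas replicate 3, LSD1-mKO Gas replicate 5 and WT Sol replicate 2, the 3 libraries with a high ribosomal protein level. For LSD1-mKO over WT it had a log2 fold change of 0.14 in Gas (95% interval -0.43 to 0.70, adjusted p 0.848) and 0.20 in Sol (95% interval -0.13 to 0.52, adjusted p 0.580). Between muscles the log2 fold change of Sol over Gas was -0.02 in WT (95% interval -0.52 to 0.48, adjusted p 0.960) and 0.05 in LSD1-mKO (95% interval -0.34 to 0.44, adjusted p 0.872).

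*Foxo1* (chromosome 3, 52268336 to 52353221, plus strand) encodes the FoxO factor best known for metabolic and atrophy genes in muscle. It had 329, 100 and 245 CPM in WT Gas and 182, 192, 249, 126 and 143 CPM in LSD1-mKO Gas, so the LSD1-mKO values lay inside the WT range. It had 43.1, 154 and 77.2 CPM in WT Sol and 61.9, 49.0, 46.3, 47.7 and 58.3 CPM in LSD1-mKO Sol. WT Sol replicate 2 was the high library, and the lowest WT Sol library was below all 5 LSD1-mKO libraries. The log2 fold change of LSD1-mKO over WT was -0.33 in Gas (95% interval -1.11 to 0.45, adjusted p 0.728) and -0.82 in Sol (95% interval -1.5 to -0.14, adjusted p 0.237, unadjusted p 0.0226). Without WT Sol replicate 2 the Sol value was -0.20 (adjusted p 0.709), so the size of the difference rested on that library.

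The comparison of Sol with Gas asks how the level of each factor differs between a mostly fast and a slow-rich muscle, and it was fitted over all 16 libraries. In WT the test called 2337 of 13749 genes, or 17% (1203 higher and 1134 lower in Sol), and the muscles did not overlap for 30.3% of genes. In LSD1-mKO it called 3367 genes, or 24.5% (1768 higher and 1599 lower in Sol), and the muscles did not overlap for 20.9%. *Foxo1* was called lower in Sol in both genotypes, with a log2 fold change of -1.30 in WT (SE 0.412, adjusted p 0.0392) and -1.76 in LSD1-mKO (SE 0.323, adjusted p 0.000762). In LSD1-mKO the 5 Sol libraries lay below the 5 Gas libraries with a wide gap, 61.9 against 126 CPM, and the call held in each of the 10 fits with 1 library left out, with log2 fold changes from -1.88 to -1.63. In WT the muscles overlapped, since WT Gas replicate 2 had 100 CPM and WT Sol replicate 2 had 154 CPM.

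The WT call of *Foxo1* was near the threshold. It was lost without WT Gas replicate 1 (-0.91, adjusted p 0.159), WT Gas replicate 3 (-1.26, adjusted p 0.0824), WT Sol replicate 1 (-0.95, adjusted p 0.176) or WT Sol replicate 3 (-1.18, adjusted p 0.148). Without both WT libraries that stand apart it was -1.86 (adjusted p 0.00979). With the ribosomal protein level added to the fit it was -0.86 (adjusted p 0.259), and with only the 2 WT groups in the fit it was -1.30 (adjusted p 0.189).

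*Foxo4* (chromosome X, 101254528 to 101260873, plus strand) is the FoxO member with the highest RNA level per length here. It had 195, 181 and 91.2 CPM in WT Gas and 153, 150, 188, 178 and 166 CPM in LSD1-mKO Gas. It had 154, 130 and 195 CPM in WT Sol and 73.4, 101, 120, 104 and 132 CPM in LSD1-mKO Sol. The LSD1-mKO Sol libraries were the low ones. Their highest value, 131.7 CPM, exceeded the lowest WT Sol value, 129.9 CPM, by a little on the scale shared by all 16 libraries. With the Sol libraries scaled alone the 2 groups did not overlap, at 136.8 and 140.4 CPM. The log2 fold change of LSD1-mKO over WT was 0.10 in Gas (95% interval -0.45 to 0.65, adjusted p 0.888) and -0.60 in Sol (95% interval -1.02 to -0.18, adjusted p 0.161, unadjusted p 0.00889). The Sol value stayed negative in each fit with 1 library left out, from -0.72 to -0.42, with adjusted p from 0.104 to 0.447.

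Sol and Gas differed in *Foxo4* in LSD1-mKO, where all 5 Sol libraries lay below all 5 Gas libraries and the log2 fold change was -0.66 (SE 0.201, adjusted p 0.0240). It was -0.58 without LSD1-mKO Sol replicate 1, with an adjusted p of 0.0550. In WT the value was 0.03 (95% interval -0.51 to 0.58, adjusted p 0.944). Whether the genotype effect differed between muscles was tested as an interaction over the 16 libraries. The edgeR test called 0 of 13749 genes, or 0%, with 671, or 4.88%, at an unadjusted p under 0.05, and DESeq2 called 21. *Foxo4* was the only one of the 6 under an unadjusted p of 0.05, with an interaction of -0.69 on the log2 scale (95% interval -1.38 to -0.0026, unadjusted p 0.0492, adjusted p 0.987). The other 5 had interactions from -0.61 for *Foxo3* to 0.07 for *Foxk2*, with adjusted p from 0.987 to 0.995.

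*Foxo3* (chromosome 10, 42181841 to 42276755, minus strand), a FoxO gene linked to ubiquitin ligase and autophagy genes in muscle, had 30.9, 21.5 and 3.29 CPM in WT Gas. LSD1-mKO Gas had 29.7, 39.6, 62.2, 40.5 and 17.3 CPM. WT Gas replicate 3, with 29 reads, was far below every other Gas library, and LSD1-mKO Gas replicate 3 was the highest library. WT Sol had 22.6, 13.1 and 27.3 CPM and LSD1-mKO Sol had 31.9, 24.8, 37.6, 22.7 and 20.6 CPM, with WT replicate 2 lowest. On the log2 scale LSD1-mKO exceeded WT by 1.01 in Gas (95% interval -0.29 to 2.31, adjusted p 0.576), the largest estimate of the 6 genes, and 0.38 in Sol (95% interval -0.17 to 0.93, adjusted p 0.514). Leaving out WT Gas replicate 3 brought the Gas value to 0.54, and it reached 1.58 without WT Gas replicate 1. Between muscles the log2 fold change of Sol over Gas was 0.16 in WT (adjusted p 0.868) and -0.46 in LSD1-mKO (adjusted p 0.441).

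*Foxo6* (chromosome 4, 120267079 to 120287349, minus strand) was the least abundant member, with from 11 to 176 reads in a library. It had 3.46, 2.31 and 1.25 CPM in WT Gas and 4.02, 2.2, 1.56, 2.96 and 3.3 CPM in LSD1-mKO Gas. It had 3.69, 8.57 and 3.94 CPM in WT Sol and 5.83, 3.71, 7.51, 5.2 and 7.3 CPM in LSD1-mKO Sol. It was higher in Sol, opposite in direction to *Foxo1*, and all 3 WT Sol libraries lay above all 3 WT Gas libraries. In LSD1-mKO the muscles overlapped, since Sol replicate 2 had 3.71 CPM and Gas replicate 1 had 4.02 CPM. The log2 fold change of Sol over Gas was 1.15 in WT (SE 0.412, adjusted p 0.0642) and 1.06 in LSD1-mKO (SE 0.311, adjusted p 0.0202), so it passed the threshold in LSD1-mKO. That call was lost without LSD1-mKO Gas replicate 3 (adjusted p 0.0526) or LSD1-mKO Sol replicate 3 (adjusted p 0.0542). The WT value was 0.37 (adjusted p 0.569) without both WT libraries that stand apart. LSD1-mKO and WT differed by 0.24 in Gas (95% interval -0.61 to 1.09) and by 0.13 in Sol (95% interval -0.57 to 0.82) on the log2 scale, with adjusted p of 0.820 and 0.894.

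*Foxk1* was lower in Sol than in Gas by its estimates, and neither passed the threshold. The log2 fold change of Sol over Gas was -0.58 in WT (95% interval -1.48 to 0.33, adjusted p 0.381) and -0.91 in LSD1-mKO (95% interval -1.62 to -0.21, adjusted p 0.0557). In LSD1-mKO it was -0.58 without LSD1-mKO Gas replicate 3, which had the highest *Foxk1* value, and -1.07 without LSD1-mKO Gas replicate 1. DESeq2 called it in LSD1-mKO with -0.93 (adjusted p 0.0257). All comparisons of this section share libraries with each other, so their values are set side by side and are not independent. In bulk RNA, fewer cells of a type and less RNA per cell cannot be told apart, and FoxK and FoxO genes are expressed in many cell types.

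**Figure D3:**
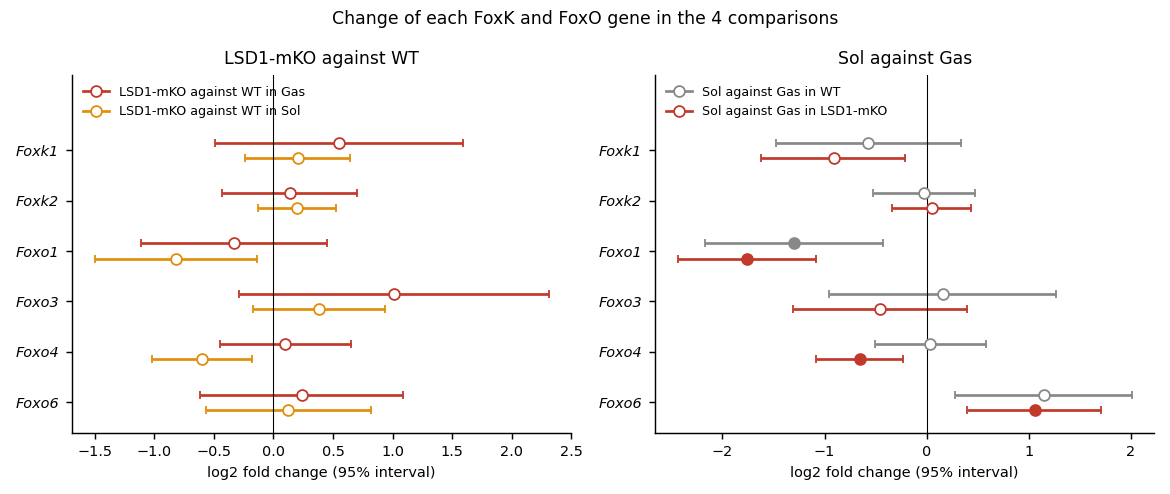
Log2 fold changes of the 6 genes with 95% intervals, on the left LSD1-mKO over WT in Gas and Sol, on the right Sol over Gas in WT and LSD1-mKO. Filled points have an adjusted p under 0.05, which are *Foxo1* in both genotypes and *Foxo4* and *Foxo6* in LSD1-mKO on the right, and none on the left.

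Several of these values moved with the ribosomal protein level of the library. After the mean of each group was subtracted, Pearson's r with that level over the 16 libraries was -0.90 for *Foxk2*, -0.88 for *Foxo3*, -0.83 for *Foxk1* and -0.64 for *Foxo4*, against 0.41 for *Foxo1* and 0.05 for *Foxo6*. These r are descriptions, and the points share their scaling and the 3 libraries that stand apart. The level also differed between muscles, from 7.12 to 8.69 log2 CPM in Gas and from 6.45 to 7.31 log2 CPM in Sol. With it as a covariate, Sol was lower than Gas in *Foxk1* by -1.66 in WT (adjusted p 0.00457) and -1.51 in LSD1-mKO (adjusted p 0.000274). *Foxo3* was then at -1.26 in WT (adjusted p 0.0412) and -1.31 in LSD1-mKO (adjusted p 0.00254), and *Foxk2* in WT at -0.62 (adjusted p 0.0205). In Gas the covariate brought the LSD1-mKO over WT value of *Foxk1* from 0.55 to 0.07 and that of *Foxo3* from 1.01 to 0.45. What part the ribosomal protein level had in these results was not tested.

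**Figure D4:**
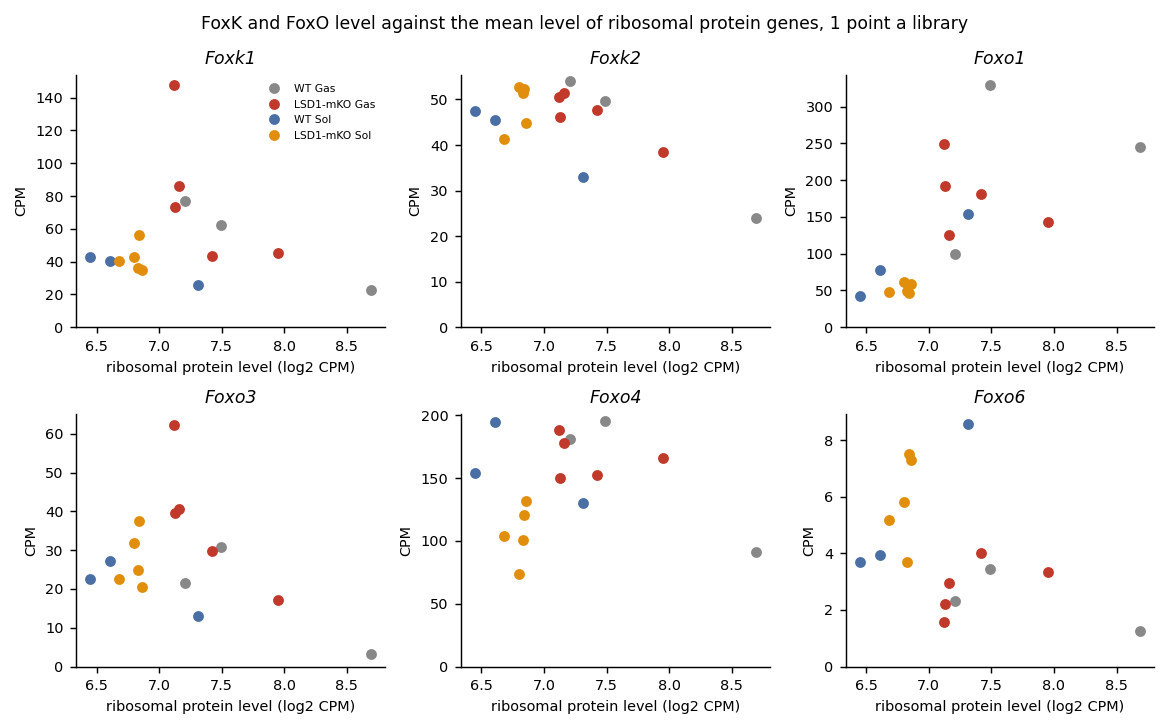
CPM of each gene against the mean level of ribosomal protein genes in log2 CPM, 1 point a library, coloured by group. WT Gas replicate 3 is the point at 8.69. *Foxk2* and *Foxo3* are lowest in the libraries with the highest ribosomal protein level, and *Foxo1* is not.

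The members also varied together. With group means subtracted, r over the 16 libraries was 0.92 between *Foxk2* and *Foxo3*, 0.89 between *Foxk1* and *Foxo3* and 0.79 between *Foxk1* and *Foxk2*. *Foxo1* went with none of them, with r of -0.22 with *Foxk1*, -0.38 with *Foxk2*, -0.09 with *Foxo3* and -0.23 with *Foxo4*. The pairs share the ribosomal protein level described above, so they are given as a description.

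FoxK and FoxO factors are thought of as opponents, so their balance within a library was described per exon length. The level of *Foxo1* was 4.64, 1.14 and 9.54 times that of *Foxk1* in WT Gas and 3.65, 2.28, 1.48, 1.28 and 2.76 times in LSD1-mKO Gas. It was 0.881, 5.29 and 1.67 times in WT Sol and 1.27, 1.2, 0.722, 1.03 and 1.46 times in LSD1-mKO Sol. All 8 Gas libraries thus had more *Foxo1* than *Foxk1*, the WT libraries spread the most in each muscle, and LSD1-mKO Sol was close to parity. The FoxK genes together made up between 11.8 and 22.4% of the summed RPKM of the 6 genes in WT Gas and between 15.8 and 23.3% in LSD1-mKO Gas. Their share lay between 13.5 and 20.6% in WT Sol, and it lay between 20.1 and 30.4% in LSD1-mKO Sol. The highest WT Sol share was that of WT Sol replicate 1, and the lowest LSD1-mKO Sol share was that of replicate 5. The sum itself was 79.1 ± 9.56 RPKM in WT Sol (SD, n = 3) and 60.8 ± 7.15 RPKM in LSD1-mKO Sol (SD, n = 5), of which *Foxo4* made up from 43.8 to 68.4% in Sol. Since these ratios combine the members, no test was run on them.

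For each member but *Foxo6*, which averaged fewer than 50 reads in Gas, the 3 genes with the most similar log2 CPM were sought among 10271 genes by Pearson's r over the 16 libraries. For *Foxo1* they included *Arrdc2* (r 0.92), a glucocorticoid-responsive arrestin domain gene, and *8430408G22Rik* (r 0.92). *Arrdc2* averaged 184 ± 118 CPM in WT Gas (SD, n = 3), 322 ± 95 in LSD1-mKO Gas (SD, n = 5), 80.6 ± 98.6 in WT Sol (SD, n = 3) and 26.5 ± 10.3 in LSD1-mKO Sol (SD, n = 5). It shares with *Foxo1* the low and narrow values of LSD1-mKO Sol and the wide spread of WT. For *Foxk1* the genes were *Ddi2* (r 0.96), a protease gene, *Phrf1* (r 0.96) and *Wiz* (r 0.94), a gene of a zinc finger protein of histone methyltransferase complexes. For *Foxk2* they were *1700021K19Rik* (r 0.96), *Pitpnm2* (r 0.96) and *Pip5k1c* (r 0.95), a lipid kinase gene. For *Foxo3* they were *Zfp526*, *Sik2* and *Mybbp1a* (r 0.96 each), and for *Foxo4* they were *Kcnn1*, *Abcf2* and *Atg9a* (r 0.89 each), the last an autophagy gene. With group means subtracted, r was 0.83 for *Arrdc2* and 0.70 for *8430408G22Rik* with *Foxo1*, and from 0.85 to 0.98 for the genes named for the other members.

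Upstream of these factors, the insulin, Akt and mTORC1 list held 26 genes, all of them tested. Neither edgeR nor DESeq2 called any between LSD1-mKO and WT, with 2 genes at an unadjusted p under 0.05 in each muscle and a median log2 fold change of 0.16 in Gas and 0.08 in Sol against 0.01 and -0.01 over all genes tested. The smallest p in Gas was that of *Akt1*, a kinase of FoxO proteins, with 71.6 ± 18.3 CPM in WT (SD, n = 3) against 103 ± 10.9 CPM with LSD1 deleted (SD, n = 5), which is 0.53 on the log2 scale (adjusted p 0.525). In Sol it was *Akt2*, at 206 CPM in WT and 163 CPM in LSD1-mKO, a log2 fold change of -0.35 (adjusted p 0.218). Between muscles, 6 genes of the list were called higher and 0 lower in Sol in WT, and 5 higher and 1 lower in LSD1-mKO. That is 23.1% of the list in each genotype, against 17% of all genes in WT and 24.5% in LSD1-mKO. With the ribosomal protein covariate the counts became 1 higher and 2 lower in WT and 3 higher and 7 lower in LSD1-mKO. The share of all genes with the covariate is not given, since 17% and 24.5% belong to the main fit. Whether the list or all genes changed cannot be read from these counts. In WT the genes called higher included *Ppp2ca*, a phosphatase subunit (log2 fold change 1.02, adjusted p 0.000795), *Mtor*, the kinase of mTORC1 (1.03, adjusted p 0.0351), and its partner *Rptor* (0.99, adjusted p 0.0139). The call of *Ppp2ca* held in 15 alternatives, whereas that of *Mtor* was lost in 7 of them, with a log2 fold change down to 0.15, and that of *Rptor* in 4, down to 0.337. *Akt2* was the gene that was lower in Sol in LSD1-mKO (-0.65, adjusted p 0.00531).

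The edgeR quasi-likelihood test called no gene between genotypes among the FoxO modifiers other than Akt (22 of 23 tested), with 1 in Gas and 4 in Sol under an unadjusted p of 0.05. DESeq2 called 0 in Gas and 1 in Sol, *Setd7*, a lysine methyltransferase gene, at 103 CPM in WT and 184 CPM in LSD1-mKO (0.83, adjusted p 0.11 by edgeR). It was also called by the exact test and with the ribosomal protein covariate, and its lowest adjusted p over the alternatives was 0.0192. Among the 14-3-3 proteins (6 of 7 tested), edgeR, DESeq2 and the exact test called none in either muscle, and none had an unadjusted p under 0.05. In the list of FoxK partners, 22 genes of the Sin3, HDAC, BAP1 and Dishevelled complexes, *Kdm1a* itself was the 1 gene called in each muscle. Between muscles the modifiers had 5 genes called higher and 1 lower in Sol in WT, and 6 higher and 2 lower in LSD1-mKO, or 26.1% and 34.8% of the list against 17% and 24.5% of all genes. The covariate gave 3 higher and 3 lower in WT and 3 higher and 6 lower in LSD1-mKO, with no share of all genes beside it. In the main fit the gene lower in both genotypes was *Sgk1*, a glucocorticoid-induced kinase of FoxO proteins. It averaged 396 CPM in WT Gas and 111 CPM in WT Sol (log2 fold change -1.84, adjusted p 0.00738). In LSD1-mKO it averaged 284 CPM in Gas and 106 CPM in Sol (-1.42, adjusted p 0.00444). *Kdm1b*, which encodes LSD2, the second flavin-dependent histone demethylase, was the 1 FoxK partner called between muscles, with 0.66 in WT (adjusted p 0.0265) and 0.73 in LSD1-mKO (adjusted p 0.00179). Its WT call was lost in 8 of 15 alternatives, with a log2 fold change down to 0.256, and its LSD1-mKO call held in all 18. No 14-3-3 gene was called between muscles by edgeR, with 1 at an unadjusted p under 0.05 in each genotype. DESeq2 called *Ywhae* in WT (-0.46, adjusted p 0.081 by edgeR and 0.0215 by DESeq2) and none in LSD1-mKO. The covariate called 3 in LSD1-mKO, also with no share of all genes beside it.

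A list of 36 genes that FoxO factors are known to activate in atrophy and metabolism was read beside the members, and all 36 were tested. Between LSD1-mKO and WT, 0 were called in Gas and 0 in Sol by edgeR, with 4 and 8 of the 36 at an unadjusted p under 0.05. Of all genes, 9.06% in Gas and 15.5% in Sol had such a p. DESeq2 and the edgeR exact test each called 0 in Gas and 3 in Sol, or 8.33% of the list. These were *Pink1*, *Tob1* and *Sod2*, all 3 lower. Both tests also called more of all genes in Sol than the main fit, with counts given under the dependence on processing. The 3 calls are therefore not read as a trait of the list. The median log2 fold change was 0.07 in Gas and -0.18 in Sol. In Gas the smallest p was that of *Ddit4*, an inhibitor of mTORC1, with 102 ± 60.0 CPM in WT (SD, n = 3) against 362 ± 274 CPM with LSD1 deleted (SD, n = 5), which is 1.82 on the log2 scale (SE 0.571, adjusted p 0.426). In Sol it was *Sod2*, a mitochondrial superoxide dismutase, at 396 CPM in WT and 255 CPM in LSD1-mKO (-0.64, SE 0.148, adjusted p 0.0681), where the libraries did not overlap.

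Between muscles, 8 FoxO targets were called in WT, 2 higher and 6 lower in Sol. That is 22.2% of the list against 17% of all genes, with a median of -0.23 against -0.01 over all genes tested. In LSD1-mKO, 3 were called higher and 13 lower, or 44.4% against 24.5% of all genes, with a median of -0.40 against 0.00 over all genes. Those lower in both genotypes included both classic ubiquitin ligases of atrophy. *Trim63* fell from 3650 to 383 CPM in WT (log2 fold change -3.25, adjusted p 0.00200) and from 2550 to 250 CPM in LSD1-mKO (-3.35, adjusted p 0.000107). *Fbxo32* fell from 1790 to 511 CPM in WT (-1.81, adjusted p 0.0203) and from 2260 to 567 CPM in LSD1-mKO (-1.99, adjusted p 0.00128). *Gadd45a*, a stress response gene, was lower in Sol by -2.70 in WT (adjusted p 0.0134) and by -3.92 in LSD1-mKO (adjusted p 8.27e-05). *Ddit4* was lower by -2.82 in LSD1-mKO (adjusted p 0.000133). The higher ones in both genotypes were *Cat*, catalase, and *Sesn3*, a sestrin. The WT count rested on single libraries: leaving out WT Sol replicate 1 gave 2 genes, WT Sol replicate 3 gave 3, WT Gas replicate 3 gave 5, and the ribosomal protein covariate gave 3, of which 2 were higher and 1 lower.

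**Figure D5:**
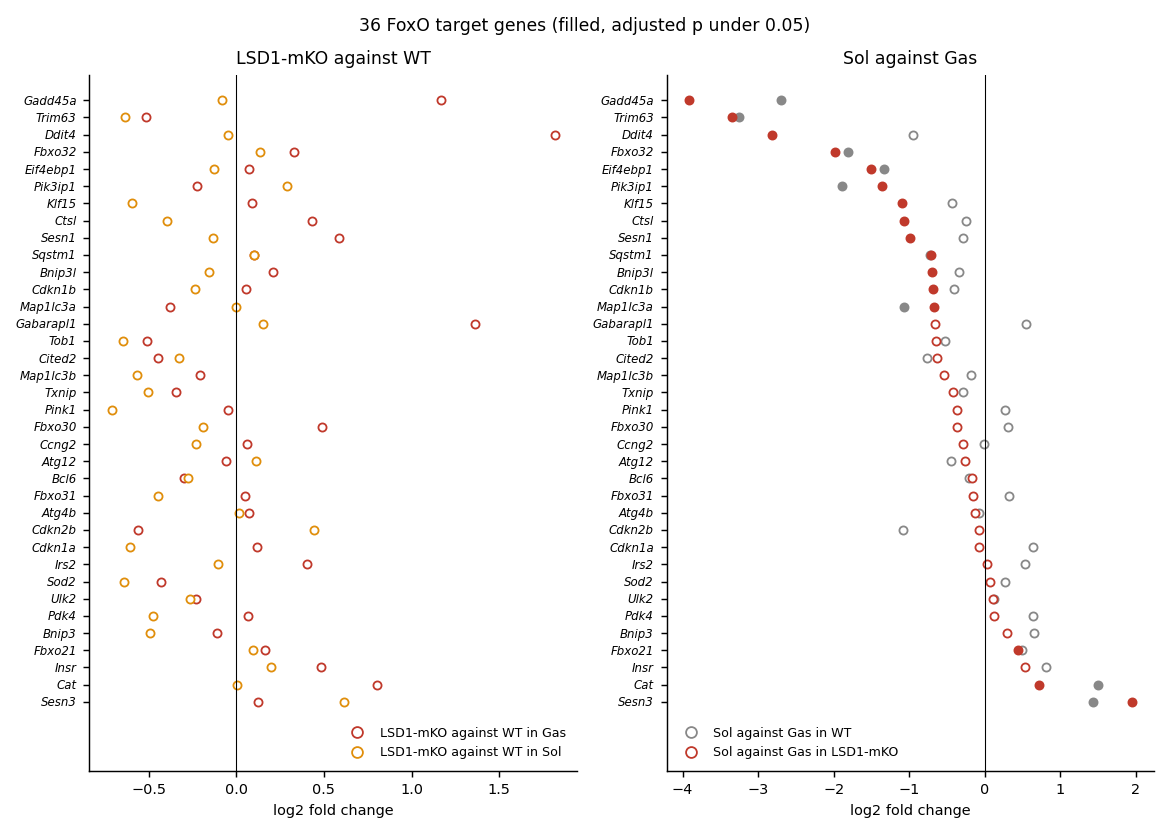
Log2 fold changes of the 36 FoxO target genes, on the left LSD1-mKO over WT, on the right Sol over Gas, with filled points for an adjusted p under 0.05. On the left no point is filled. On the right 8 points are filled in WT and 16 in LSD1-mKO, and most of these lie below 0.

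The promoters of FoxO targets were read for the forkhead motif. RefSeq promoter windows (GRCm38.p6, 250 bases before to 50 after the start site) were available for 30 of the 36 genes. The letters GTAAACA on either strand stood in 3 of their 33 windows, or 9.09%, those of *Trim63*, *Txnip* and *Sesn1*, against 3.65% of all 32851 windows. The shorter TAAACA, which lies within GTAAACA, stood in 18.2% against 13.4%. The palindrome of a glucocorticoid receptor site, GNACA and TGTNC with 3 bases of any kind between them, read on both strands, stood in 2 windows, those of *Trim63* and *Txnip*, against 0.475% of all windows. Both are shown because they hold both motifs. The stretches lie before the start site on the plus strand, and each match is in capitals. Such a match is not evidence of binding.
Trim63 chr4:134314900-134315049: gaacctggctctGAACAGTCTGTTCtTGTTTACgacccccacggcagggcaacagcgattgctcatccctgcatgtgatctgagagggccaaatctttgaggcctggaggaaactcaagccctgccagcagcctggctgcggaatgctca
Txnip chr3:96557737-96557886: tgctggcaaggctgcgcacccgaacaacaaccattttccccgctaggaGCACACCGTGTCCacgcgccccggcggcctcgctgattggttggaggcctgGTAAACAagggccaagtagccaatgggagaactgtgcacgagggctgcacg

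In the *Trim63* window the palindrome begins 208 bases before the start site and the forkhead letters, on the minus strand, begin 194 bases before it. In the *Txnip* window they begin 172 and 121 bases before it. Windows of 3 members were available, *Foxk2*, *Foxo1* and *Foxo3*, and held none of these letters. *Trim63* had 4127, 2506 and 4313 CPM in WT Gas and 1404, 2010, 6025, 1161 and 2140 CPM in LSD1-mKO Gas. It had 221, 750 and 179 CPM in WT Sol and 232, 219, 423, 161 and 217 CPM in LSD1-mKO Sol. *Trim63* and *Foxo1* were highest in the same library in WT Sol (replicate 2) and LSD1-mKO Gas (replicate 3) and not in the other groups. In WT Gas *Trim63* was highest in replicate 3 and *Foxo1* in replicate 1, and in LSD1-mKO Sol the highest library of *Trim63*, replicate 3, was the lowest of *Foxo1*. *Txnip*, an inhibitor of thioredoxin and glucose uptake, had from 981 to 1871 CPM in WT Gas and from 722 to 1838 CPM in WT Sol, with the highest Sol value again in WT Sol replicate 2. It was not called in any comparison, with log2 fold changes of Sol over Gas of -0.29 in WT (adjusted p 0.593) and -0.42 in LSD1-mKO (adjusted p 0.259). *Sesn1*, a sestrin whose match lies after the start site, was lower in Sol in LSD1-mKO by -0.99 (adjusted p 0.0130) and not called in WT (-0.29, adjusted p 0.601).

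Autophagy initiation and elongation genes, which both families regulate, numbered 30. Neither edgeR nor DESeq2 called one between genotypes, with 1 gene in Gas and 2 in Sol under an unadjusted p of 0.05 and medians of 0.06 and -0.10. The smallest p in Gas was that of *Gabarapl1*, an ATG8 gene, which averaged 124 CPM in WT and 318 ± 274 CPM with LSD1 deleted (SD, n = 5), or 1.36 on the log2 scale (adjusted p 0.541). Sol over Gas gave 2 higher and 3 lower genes in WT and 1 higher and 7 lower genes in LSD1-mKO, or 16.7% and 26.7% of the list against 17% and 24.5% of all genes. *Tfeb*, a regulator of lysosomal genes, was called lower in Sol in both, by -1.33 in WT (adjusted p 0.0114) and -1.01 in LSD1-mKO (adjusted p 0.00852). *Map1lc3a*, another ATG8 gene, was also lower in both (-1.07, adjusted p 0.0128, and -0.67, adjusted p 0.0273). Its WT call was lost in 5 of 15 alternatives and its LSD1-mKO call in 5 of 18, the replicate block among them.

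The list of glycolysis genes linked to FoxK factors numbered 18. It also held *Pdk1*, *Pdk4*, *Pdha1* and *Pdp1*, genes of pyruvate oxidation, so it is not a list of genes that FoxK factors induce. The edgeR test called 0 between genotypes in either muscle, with 2 in Gas and 3 in Sol under an unadjusted p of 0.05. DESeq2 called 0 in Gas and 1 in Sol, *Gapdh*, which was higher in LSD1-mKO. *Pdk1*, which restrains pyruvate oxidation, had the smallest p of edgeR in both, at 0.76 for Gas (adjusted p 0.471) and 0.55 for Sol (adjusted p 0.174). Between muscles 2 were called higher and 10 lower in Sol in each genotype, 66.7% of the list against 17% of all genes in WT and 24.5% in LSD1-mKO. *Aldoa*, an aldolase gene, averaged 26300 CPM in WT Gas and 6100 CPM in WT Sol (log2 fold change -2.11, adjusted p 3.12e-05). *Pdk1* went the other way, by 2.09 in WT (adjusted p 4.42e-05) and 1.89 in LSD1-mKO (adjusted p 4.00e-06).

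Because every mouse received Dex, 18 genes of the glucocorticoid receptor and its response were read as well. Neither edgeR nor DESeq2 called any between genotypes, with 2 in Gas and 5 in Sol under an unadjusted p of 0.05. In Sol over Gas, 0 were higher and 5 lower in WT and 1 was higher and 11 lower in LSD1-mKO, with medians of -0.59 and -0.78. These are 27.8% and 66.7% of the list against 17% and 24.5% of all genes in the main fit. The covariate gave 2 higher and 3 lower in WT, with no share of all genes beside it. *Cebpd*, a transcription factor gene induced by glucocorticoids, averaged 551 CPM in WT Gas and 86.7 CPM in WT Sol (-2.67, adjusted p 0.00782). *Glul*, glutamine synthetase, was lower in Sol by -1.60 in WT (adjusted p 0.000982) and -1.93 in LSD1-mKO (adjusted p 1.02e-05). *Arrdc2*, named above for its likeness to *Foxo1*, was lower in LSD1-mKO Sol by -3.60 (adjusted p 0.000308). *Ddit4*, *Sgk1* and *Klf15* stand in this list and also in those above. The lists above share genes too, so their counts are not separate. Among the FoxO targets, for example, *Map1lc3a*, *Gabarapl1* and *Sqstm1* are also autophagy genes. *Pdk4* is also in the glycolysis list, and *Insr* and *Irs2* are also in the insulin list.

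The muscle contrast of the members comes with a contrast of fiber type. All 11 slow fiber genes were called higher in Sol in both genotypes, and 9 of 11 fast fiber genes were called lower. The fast genes summed to between 182000 and 232000 CPM in WT Gas, between 139000 and 191000 in LSD1-mKO Gas, between 45900 and 63300 in WT Sol and between 30100 and 55500 in LSD1-mKO Sol. *Myh4*, the type IIB myosin gene, averaged 46200 CPM in WT Gas and 74.7 CPM in WT Sol, and *Myh7*, the type I myosin gene, averaged 180 and 7900 CPM, as the muscle labels have it. Fiber genes also moved with the genotype contrast in Gas. All 11 slow genes had a positive log2 fold change of LSD1-mKO over WT there (median 0.46), and 9 of 11 fast genes had a negative one (median -0.71), with 4 and 6 at an unadjusted p under 0.05. None of them was called by the edgeR quasi-likelihood test, whereas DESeq2 and the exact test called 2 slow genes higher, *Casq2* and *Sln*, and 1 fast gene lower, *Myl1*, a myosin light chain gene. *Casq2*, a calsequestrin gene, was at 1.45 in Gas (adjusted p 0.196 by edgeR). *Myl1* averaged 8720 CPM in WT Gas and 3140 CPM in LSD1-mKO Gas (-1.47, adjusted p 0.191 by edgeR). In Sol the median was -0.02 for slow and -0.28 for fast genes, and *Casq2* was called higher in LSD1-mKO (1.10, adjusted p 0.0155). That call was lost under the replicate block and without any 1 of the WT Sol libraries, with log2 fold changes from 1.02 to 1.17 over all alternatives. No fast gene was called in Sol by the main edgeR fit or DESeq2, with 3 at an unadjusted p under 0.05. For LSD1-mKO over WT in Sol, 4 fast genes were positive and 7 negative. *Myh4* was at 74.7 CPM in WT Sol and 464 CPM in LSD1-mKO Sol (adjusted p 0.134 by edgeR). The exact test, the block and the fit with no filter called it higher in LSD1-mKO. The block also called *Myh1* lower in LSD1-mKO Sol, and the ribosomal protein covariate called *Actn3* higher.

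Markers of other cells also differed. The 7 fibroblast markers summed to between 1420 and 1980 CPM in WT Gas, 895 and 1140 in LSD1-mKO Gas, 978 and 1610 in WT Sol and 737 and 2630 in LSD1-mKO Sol, and edgeR called *Postn* alone between genotypes, in Sol (2.47, adjusted p 0.0307). That call was lost without any 1 of the WT Sol libraries and without LSD1-mKO Sol replicate 2 or 3, with log2 fold changes from 2.05 to 2.66. In Sol 5 fibroblast markers were positive and 2 negative for LSD1-mKO over WT (median 0.44). In Gas DESeq2 and the exact test called *Postn* as well (1.44, adjusted p 0.278 by edgeR). It was the 1 positive fibroblast marker there, against 6 negative ones (median -0.29). The 8 endothelial markers summed to between 462 and 553 CPM in WT Gas, 349 and 507 in LSD1-mKO Gas, 589 and 687 in WT Sol and 470 and 654 in LSD1-mKO Sol, and *Pecam1* was called higher in Sol in LSD1-mKO (0.48, adjusted p 0.0462), a call lost in 13 of 18 alternatives. Of the 6 Schwann cell markers, 3 were called lower in Sol in LSD1-mKO, and their sum ranged from 143 to 641 CPM in LSD1-mKO Gas and from 138 to 209 CPM in LSD1-mKO Sol. The 7 adipocyte markers summed to between 451 and 2000 CPM over all libraries and the 6 satellite cell and myogenic markers to between 34.9 and 137 CPM. The main edgeR fits called none of them in any comparison. DESeq2 called no adipocyte marker, whereas the replicate block called *Lep* lower in LSD1-mKO Sol. In each muscle 1 adipocyte marker was positive and 6 negative for LSD1-mKO over WT (median -0.44 in Gas and -0.66 in Sol). DESeq2 called *Chodl*, a satellite cell marker, lower in LSD1-mKO Sol (-0.88, adjusted p 0.123 by edgeR), as did the exact test and the replicate block. *Chodl* was the 1 negative satellite cell or myogenic marker in that comparison, against 5 positive ones (median 0.19). The block also called *Myog*, a myogenic marker, higher there. DESeq2 called *Pax7*, the satellite cell transcription factor, higher in Sol than in Gas in both genotypes (1.60 with adjusted p 0.0589 by edgeR in WT, 0.96 with 0.0862 in LSD1-mKO). *Pax7* averaged only 0.744 ± 0.84 CPM in WT Gas (SD, n = 3). Its log2 fold change fell to 0.552 in WT and 0.21 in LSD1-mKO over the alternatives. Of the 6 satellite cell and myogenic markers, 3 were positive and 3 negative for Sol over Gas in WT. In LSD1-mKO 4 were positive and 2 negative. Between genotypes, 1 adipocyte marker in Gas and 3 in Sol had an unadjusted p under 0.05, and so had 0 and 2 satellite cell markers. Of the 14 blood and immune markers, the 4 hemoglobin genes were listed at 0 throughout, and 1 was called in WT and 3 in LSD1-mKO between muscles. *Cd68*, a macrophage gene, was at 1.95 for LSD1-mKO over WT in Sol (adjusted p 0.0699 by edgeR) and was called in 7 of 17 alternatives, DESeq2 and the exact test among them. Apart from hemoglobin, no marker was at 0 in every library of a group. The part of fiber type and of other cells in the results on FoxK and FoxO genes was not tested.

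Of 38 other forkhead genes, 14 were tested in Gas, 11 in Sol and 16 in the fits of both muscles. The edgeR quasi-likelihood test called none between genotypes, with 1 in Gas and 0 in Sol under an unadjusted p of 0.05. *Foxp3*, the regulatory T cell factor, had the smallest p in Gas, at 0.129 ± 0.113 CPM in WT (SD, n = 3), below the limit set by 3 reads, and 1.35 ± 0.570 CPM in LSD1-mKO (SD, n = 5), with an adjusted p of 0.196. DESeq2, the exact test and the fit of all 16 libraries called it higher in LSD1-mKO Gas, with a lowest adjusted p of 0.000589, and DESeq2 called no forkhead gene of this list in Sol. Between muscles 1 was called higher and 1 lower in Sol in WT, and 1 higher and 2 lower in LSD1-mKO, or 12.5% and 18.8% against 17% and 24.5% of all genes. *Foxp3* was one of the latter, at 0.102 CPM in LSD1-mKO Sol, at or under the limit set by 3 reads. *Foxn3*, a repressor, was higher in Sol by 1.23 in WT (adjusted p 0.0117) and 0.97 in LSD1-mKO (adjusted p 0.00652). Its WT call was lost in 3 of 15 alternatives, with a log2 fold change down to 0.321, and its LSD1-mKO call held in all 18. *Foxd3* was lower in Sol by -1.25 in WT (adjusted p 0.0214) and -0.93 in LSD1-mKO (adjusted p 0.0165), with the WT call lost in 5 of 15 alternatives and the LSD1-mKO call in 1 of 18.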

How the data were processed

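The libraries were made from poly(A) RNA and read from 1 end. For alignment to mm10 the authors used STAR, and featureCounts on the iGenomes UCSC annotation gave the exon reads of each gene. The deposited counts are raw and not normalized, 24421 genes for each muscle. No strand option is named in the file header, so reads of overlapping antisense genes cannot be told apart. The deposited tables of the authors' own comparisons hold log2 fold changes, mean levels and p-values, and were not used. Groups and replicate numbers are those of the labels.

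Genes were kept by edgeR's filterByExpr (minimum count 10) and scaled by TMM, and comparisons used the quasi-likelihood F-test of edgeR 4.0.16 (R 4.3.3, limma 3.58.1), two-sided, with Benjamini-Hochberg adjustment over all genes tested and a threshold of 0.05. LSD1-mKO was compared with WT within each muscle. The interaction and Sol against Gas were fitted over all 16 libraries. SE is the log2 fold change over the square root of F. CPM uses TMM over the 16 libraries. The fits were tested on simulated counts. Each library counts as a separate sample as the labels give it, and p-values measure the spread between these libraries.

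The 6 members and all lists were chosen with earlier results of these data known. Named were the members, *Kdm1a*, for each list and comparison up to 4 called genes with the largest change or else the gene with the smallest p, and the 3 most similar genes for members with at least 50 reads on average in each muscle. One gene that this rule names is not reported here. *Cat*, *Sesn3*, *Txnip* and *Sesn1* were named after their values were seen. Alternatives were RLE scaling, no filter, DESeq2 1.42.0, the edgeR exact test, a replicate block, a ribosomal protein covariate, fits of more or fewer groups, and each library left out. TMMwsp and upper quartile scaling, both WT libraries left out and the fuller exon lengths were chosen after seeing the data.

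Pairing by replicate number was checked by the correlation of deviations from group means. Between Gas and Sol of LSD1-mKO all 5 same-numbered pairs had r from 0.202 to 0.333. Differently numbered pairs were not examined, so whether these numbers pair the libraries is not settled. The main Sol against Gas fits used no pairing, and the replicate block was an alternative to them.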

Additional observations from a re-analysis of the deposited data

Results flagged for a closer look

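*Trim63* had 6030 CPM in LSD1-mKO Gas replicate 3, where the other 4 libraries of the group lay between 1160 and 2140 CPM. It had 423 CPM in LSD1-mKO Sol replicate 3, where the others lay between 161 and 232 CPM. Each was a single library far from the rest of its group, by Dixon's criterion at 95%. In 22 groups of values that were examined this way, 2 were flagged, and chance alone flags about 1 in 20. All 22 were LSD1-mKO groups, since the rule was not applied to WT groups, which hold 3 libraries each. No LSD1-mKO value of the 6 FoxK and FoxO genes was flagged, and their WT values were not examined this way.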

How the results depend on the processing

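Across 546 refits of the 6 genes in the 5 comparisons, 488 kept their direction and their side of the threshold, 10 lost a call, 11 gained one and 37 turned in direction, and no scaling moved the median of all genes by over 0.1 on the log2 scale. The count of genes called for LSD1-mKO in Gas, 4, became 10 without a filter, 132 with DESeq2, 104 with the exact test, 62 in the fit of all 16 libraries, and 1 to 7 with 1 library left out. In Sol, 129 became 336, 605, 560 with the same first 3 settings, 291 with the ribosomal protein covariate, 412 with the replicate block and 11 to 228 with 1 library left out. For the interaction, 0 became 21 with DESeq2, 1 with the block and 0 to 1 with 1 library left out. For Sol against Gas in WT, 2337 became 1011 with 2 groups in the fit and 1132 to 2839 with 1 library left out. List counts from an alternative have their background in these counts and not in the shares of the main fit. For Sol against Gas the count over all genes with the covariate is not given.

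For LSD1-mKO in Gas the covariate gave -0.0934 for *Foxk2* and -0.0665 for *Foxo4*, and leaving out 1 library gave -0.134 to 0.368 for *Foxk2*, -0.66 to 0.0603 for *Foxo1*, -0.161 to 0.297 for *Foxo4* and -0.0166 to 0.635 for *Foxo6*. In Sol it gave -0.0792 to 0.632 for *Foxo6*. For the interaction the covariate gave 0.146 for *Foxk1*, leaving out both WT libraries that stand apart gave 0.0759 for *Foxo1* and 0.659 for *Foxo6*, and leaving out 1 library gave -0.687 to 0.0275 for *Foxk1*, -0.147 to 0.351 for *Foxk2*, -0.849 to 0.134 for *Foxo1* and -0.482 to 0.406 for *Foxo6*. For Sol against Gas in WT, DESeq2 gave 1.15 for *Foxo6* (adjusted p 0.0347), the covariate gave -1.66 for *Foxk1*, -0.625 for *Foxk2*, -0.864 for *Foxo1*, -1.26 for *Foxo3* and -0.417 for *Foxo4*, and 2 groups in the fit gave -1.3 for *Foxo1*. Both WT libraries left out gave -0.0994 for *Foxo3* and -0.134 for *Foxo4*. Leaving out 1 library gave -0.326 to 0.196 for *Foxk2*, -1.89 to -0.911 for *Foxo1*, -0.344 to 0.724 for *Foxo3*, -0.262 to 0.23 for *Foxo4* and 0.65 to 1.54 for *Foxo6*. In LSD1-mKO, *Foxk1* was called with DESeq2 (-0.931), the covariate (-1.51) and 2 groups in the fit (-0.917), the covariate gave -0.31 for *Foxk2* and -1.31 for *Foxo3*, and leaving out 1 library gave -1.07 to -0.579 for *Foxk1*, -0.0157 to 0.0827 for *Foxk2*, -0.748 to -0.579 for *Foxo4* and 0.885 to 1.23 for *Foxo6*. The causes were not tested.

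Same-numbered WT and LSD1-mKO libraries had r of 0.203, 0.28 and -0.144 in Gas and 0.0932, 0.00178 and 0.106 in Sol. Gas and Sol of WT had r of 0.109, -0.476 and -0.226. No pairing was taken from these numbers, and differently numbered pairs were not examined. With the replicate block *Foxo1* was 0.0365 for LSD1-mKO in Gas and -1.36 (adjusted p 0.116) for Sol against Gas in WT, and *Foxk2* was 0.0399 there. In LSD1-mKO, where the numbers may pair the libraries, the block changed no call of the 6 genes. *Foxo6* and *Foxo3* had the fewest reads.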
